A study of Homo sapiens with 9 samples.

Results

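Interferon-stimulated genes and the factors that regulate them were followed in A549, a widely used line of human lung adenocarcinoma cells, after an siRNA against NRF2. Of 43 listed genes, 42 had a probe set that reads 1 gene only, out of 19775 genes measured that way; STAT2 was not analysed here. Each gene was read from its brightest probe set, by the mean of all 9 arrays. The 3 groups of 3 biological replicates were compared. Mock cells received the lipid transfection reagent alone, NS siRNA cells a non-targeting siRNA at 25 nM, and Nrf2 siRNA cells an siRNA against Nrf2 at 25 nM, and all RNA was taken at 96 h. A549 cells carry an inactivating mutation of KEAP1, the repressor of NRF2, so NRF2 is active in all 3 groups before any siRNA. The series used 1 cell line and 1 Nrf2 siRNA group with no rescue, so an effect of NRF2 loss and another effect of that siRNA cannot be told apart. Values are log2 expression levels; a difference of 1 is a factor of 2.

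Interferons are secreted when a cell senses foreign nucleic acid. They bind receptors that activate JAK kinases, and STAT proteins then join IRF9 in a complex that binds interferon-stimulated response elements (ISRE) in promoters. Interferon-gamma acts mainly through gamma-activated sites (GAS). The genes switched on encode sensors of viral RNA, enzymes that degrade or modify it, the ubiquitin-like protein ISG15 with its conjugating enzymes, and antiviral GTPases. Many are also expressed at a basal level without added interferon. Transfected siRNA is itself double-stranded RNA, which the mock cells did not receive.

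The promoters of the members show how many carry the binding letters of these factors. RefSeq promoter windows (GRCh38.p14, 250 bases before to 50 after a start) were found for 34 of the 43 members, 47 windows in all. The ISRE core, GAAA then any 2 bases then GAAA, searched on both strands (TTTC, any 2 bases, TTTC on the other), lay in 24 of the 34 members (70.6%) against 4.38% of 27305 genes. The GAS letters TTCNNNGAA, which read the same on both strands, lay in 12 (35.3%, against 9.38%), and a core of the antioxidant response element that NRF2 binds, TGACNNNGC, on both strands, lay in 8 (23.5%, against 16.1%). Each motif was counted on its own, also where 2 overlapped. The stretches below are from the 8 members that passed the test with the largest changes and hold an ISRE core, with the matched letters in capitals and 20 bases on each side where these lie before the start. The first match begins 136 bases before the start in SAMD9 and 127 or fewer in the others. In EIF2AK2 it begins 6 bases before the start and runs over it, and the stretch ends there.
PLSCR1: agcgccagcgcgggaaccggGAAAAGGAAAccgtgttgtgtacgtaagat
GBP1: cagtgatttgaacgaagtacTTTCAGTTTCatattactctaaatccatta
PARP9: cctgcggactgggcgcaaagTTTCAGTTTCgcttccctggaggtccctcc
ISG20: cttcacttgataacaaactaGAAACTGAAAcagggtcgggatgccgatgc
EIF2AK2: gggaaggcggagtccaagggGAAAACGAAA
HERC5: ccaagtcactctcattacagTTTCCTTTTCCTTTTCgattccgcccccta
IFIT1: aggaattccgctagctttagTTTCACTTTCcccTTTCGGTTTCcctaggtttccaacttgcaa
SAMD9: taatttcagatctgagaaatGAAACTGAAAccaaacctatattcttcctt

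The same core stands in promoters of members that did not pass the test, of which ISG15 and OAS3 are shown, chosen after their values were seen. OAS1 and IRF9 hold no ISRE core of these exact letters in the window and are shown at their GAS match.
ISG15: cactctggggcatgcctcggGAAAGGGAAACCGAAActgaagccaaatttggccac
OAS3: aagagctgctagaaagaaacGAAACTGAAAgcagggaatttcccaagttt
OAS1: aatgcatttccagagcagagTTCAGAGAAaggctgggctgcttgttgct
IRF9: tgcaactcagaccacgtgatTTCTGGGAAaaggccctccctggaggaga

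In GRCh38.p14 these stretches lie at chr3:146544657-146544706 (minus strand) for PLSCR1, chr1:89065306-89065355 (minus) for GBP1, chr3:122564312-122564361 (minus) for PARP9 and chr15:88638927-88638976 (plus) for ISG20. EIF2AK2 is at chr2:37156977-37157006 (minus), HERC5 at chr4:88456974-88457023 (plus), IFIT1 at chr10:89392487-89392549 (plus) and SAMD9 at chr7:93118086-93118135 (minus). ISG15 is at chr1:1013364-1013419 (plus), OAS3 at chr12:112938311-112938360 (plus), OAS1 at chr12:112906774-112906822 (plus) and IRF9 at chr14:24161182-24161230 (plus). A match of letters is a description and shows no binding.

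The siRNA target NFE2L2 (NRF2) stood at 12.07, 11.92 and 11.98 in mock, 12.09, 12.03 and 12.15 in NS siRNA, and 10.12, 10.32 and 10.30 after Nrf2 siRNA. That is 27.9% of the NS siRNA level. Array medians lay between 7.51 and 7.57. All 6 epithelial markers fixed for the cells (EPCAM, CDH1, KRT7, KRT8, KRT18, KRT19) stood above 7.54, the median of all probe sets, and their summed level ranged from 15.99 to 16.02 in mock, 16.09 to 16.10 in NS siRNA and 16.14 to 16.22 after Nrf2 siRNA. The sum hides changes of single markers. KRT19 rose by 1.15 against NS siRNA and 1.95 against mock, EPCAM by 0.48 and 1.2 and CDH1 by 0.48 and 0.94, while KRT7 fell by 0.17 and 0.21. Of 8 leukocyte markers 6 were measured and 3 lay above that median; their summed level ranged from 10.01 to 10.11 in mock, 10.10 to 10.12 in NS siRNA and 10.28 to 10.43 after Nrf2 siRNA. Of these, CD14 was the 1 called between the siRNA groups, 0.96 ± 0.06 (SE) above NS siRNA (limma adjusted p = 8.03e-08). The 7 fibroblast markers summed to 11.62 to 11.89 in mock, 11.13 to 11.19 in NS siRNA and 12.08 to 12.28 after Nrf2 siRNA, and the 4 endothelial markers to 9.58 to 9.64, 9.66 to 9.70 and 9.52 to 9.67. Of the fibroblast markers 4 rose against NS siRNA (THY1 by 0.34, COL1A1 by 1.12, COL3A1 by 1.73, LUM by 3.01), and COL1A2, DCN and PDGFRB did not pass (-0.06 to 0.00). Their part in the results was not tested. Levels come from bulk RNA, so more cells with a transcript and more transcript per cell cannot be told apart.

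Against NS siRNA, 20 of the 42 members rose and 6 fell after Nrf2 siRNA (limma, adjusted p below 0.05 over all genes). Over all 19775 genes, 47.6% passed in that comparison, 21% higher and 26.6% lower, so 61.9% of the members called stands beside a background of nearly 1 gene in 2. The members were chosen with earlier results of these data known, so the shares here and below are descriptions and no independent test. The rises were led by the DNA sensor IFI16 (3.58-fold), the oligoadenylate synthetase OAS1 (2.61-fold) and the GTPase GBP1 (2.22-fold). GBP1 had a mean level of 7.34, below the median of all probe sets. The largest falls were those of the RNA exonuclease ISG20 (1.75-fold) and the ISG15 ligase HERC5 (1.61-fold). By at least 0.5, 15 members were higher and 2 lower, against 8.03% and 4.69% of all genes. The median over the members was 0.08 and over all genes -0.05. The groups' arrays did not overlap for 26 of 42 members, against 54.1% of all genes.

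Against mock, 18 members rose and 5 fell, with 33% of all genes called, 16.4% higher and 16.7% lower. Here PLSCR1, an interferon-inducible phospholipid scramblase, was first (2.24-fold), followed by IFI16 (1.79-fold) and GBP2 (1.71-fold), and 9 members were higher by at least 0.5 and 1 lower, against 4.16% and 2.74% of all genes. The median was 0.13 against -0.02 over all genes, and arrays of the groups did not overlap for 26 members, against 42.6% of all genes. Both comparisons use the same Nrf2 siRNA arrays and are therefore not independent of each other.

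**Figure D1:**
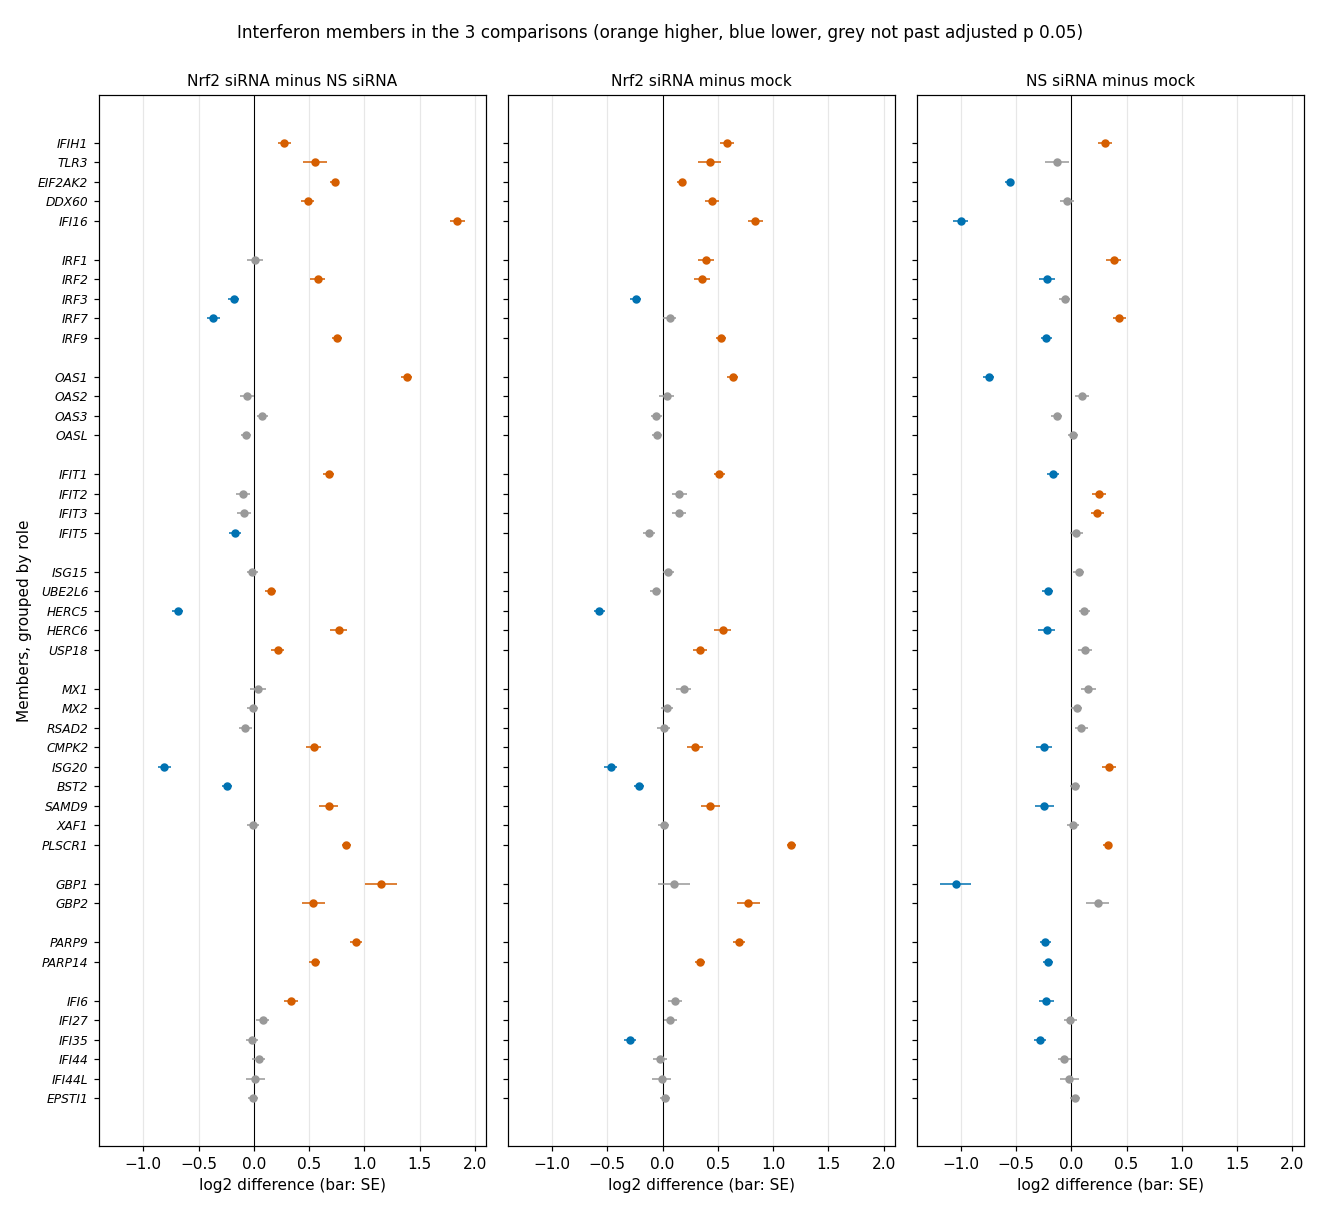
Log2 difference (x axis, bar: standard error of the model) of the 42 measured members, grouped by role on the y axis, in the 3 comparisons. IFI16 and OAS1 lie at 1.84 and 1.38 in the left panel, 0.84 and 0.64 in the middle one and -1.0 and -0.75 in the right one.

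Of the 5 listed sensors, 5 rose against NS siRNA, beside 21% of all genes, and 5 against mock, beside 16.4%. Of the nucleic-acid sensors in the wider pathway list, some differed in the other direction, named here after their values were seen: CGAS was at -0.48, TLR7 at -0.15 and ZBP1 at -0.15, all called, while RIGI (0.13) and DHX58 (-0.03) were not called. IFI16, which binds viral and damaged DNA, stood at 9.22, 9.32 and 9.34 in mock, 8.37, 8.36 and 8.15 in NS siRNA, and 10.13, 10.21 and 10.06 after Nrf2 siRNA. The 3 groups did not overlap, with NS siRNA lowest and Nrf2 siRNA highest. The difference was 1.84 ± 0.07 (SE) against NS siRNA (limma adjusted p = 2.98e-10) and 0.84 ± 0.07 against mock (adjusted p = 7.21e-07). Its other 2 probe sets differed from NS siRNA by 1.89 each.

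EIF2AK2, the kinase PKR that halts translation when it binds double-stranded RNA, was at 11.09, 11.09 and 11.10 in mock, 10.56, 10.50 and 10.55 in NS siRNA, and 11.22, 11.32 and 11.27 after Nrf2 siRNA. NS siRNA stood apart below the other groups. It rose by 0.73 ± 0.04 (SE) against NS siRNA (limma adjusted p = 2.79e-08) and by 0.17 ± 0.04 against mock (adjusted p = 0.00791). The call against mock depended on the probe set: the mean of its 3 probe sets gave 0.43 against NS siRNA (adjusted p = 2.32e-05) and 0.03 against mock (adjusted p = 0.742).

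TLR3, the endosomal receptor of double-stranded RNA, stood at 4.91, 5.0 and 5.08 in mock, 5.04, 4.80 and 4.77 in NS siRNA, and 5.32, 5.70 and 5.24 after Nrf2 siRNA. IFIH1 (MDA5), the cytosolic sensor of long double-stranded RNA, stood at 5.71, 5.60 and 5.55, then 5.93, 5.98 and 5.86, then 6.13, 6.32 and 6.15 in the same order of groups. Both genes lay below the median of all probe sets in every group, where a fold can be understated. By mean level TLR3 stood at percentile 4.81 of all genes and IFIH1 at percentile 10.1. In both the Nrf2 siRNA arrays lay above all 6 controls. Against NS siRNA TLR3 rose by 0.55 ± 0.11 (SE; limma adjusted p = 0.000838) and IFIH1 by 0.28 ± 0.06 (adjusted p = 0.00262). IFIH1 differed from mock by 0.58 ± 0.06 (adjusted p = 1.09e-05), and NS siRNA lay between the other 2 groups. With the mean of its 3 probe sets IFIH1 was at 0.10 against NS siRNA and 0.24 against mock, both still past the threshold (adjusted p = 0.0446 and 0.000422). Its other probe sets were at 0.06 and -0.03 against NS siRNA, and neither was called (limma adjusted p = 0.481 and 0.695). Those of TLR3 were at 0.61 and -0.01. The helicase DDX60 rose by 0.49 ± 0.06 and 0.45 ± 0.06 (adjusted p = 2.58e-05 and 0.000101), at a mean level of 7.46, also below the median.

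The transcription factors did not move together: of 5 measured, 2 rose and 2 fell against NS siRNA, beside 21% and 26.6% of all genes. IRF9, the DNA-binding subunit of the interferon-activated complex, stood at 10.10, 10.17 and 10.17 in mock, 9.97, 9.92 and 9.87 in NS siRNA, and 10.67, 10.63 and 10.73 after Nrf2 siRNA. The Nrf2 siRNA arrays lay above all others. The rise was 0.75 ± 0.05 (SE) against NS siRNA (limma adjusted p = 4.48e-08) and 0.53 ± 0.05 against mock (adjusted p = 2.26e-06).

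IRF2, known as an antagonist of IRF1 on shared promoter sites, stood at 9.10, 9.30 and 9.04 in mock, 8.94, 9.02 and 8.82 in NS siRNA, and 9.44, 9.55 and 9.51 after Nrf2 siRNA, a rise of 0.58 ± 0.07 (SE) and 0.36 ± 0.07 against the 2 controls (limma adjusted p = 1.78e-05 and 0.00151). IRF7, the inducer of most interferon-alpha genes, went the other way relative to NS siRNA. It stood at 7.52, 7.67 and 7.46 in mock, 8.02, 7.99 and 7.93 in NS siRNA, and 7.64, 7.67 and 7.54 after Nrf2 siRNA. NS siRNA was the high group, and mock and Nrf2 siRNA overlapped. IRF7 differed by -0.37 ± 0.06 from NS siRNA (adjusted p = 0.000200) and by 0.06 ± 0.06 from mock (adjusted p = 0.472).

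IRF1, an activator of interferon genes, was higher than mock in both siRNA groups, by 0.38 ± 0.07 (SE) in NS siRNA and 0.39 ± 0.07 after Nrf2 siRNA (limma adjusted p = 0.00112 and 0.000807); the siRNA groups differed by 0.01 ± 0.07 (adjusted p = 0.916). IRF3, the constitutive factor that starts interferon-beta transcription, fell by 0.18 ± 0.05 against NS siRNA and by 0.24 ± 0.05 against mock (adjusted p = 0.00658 and 0.00144).

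**Figure D2:**
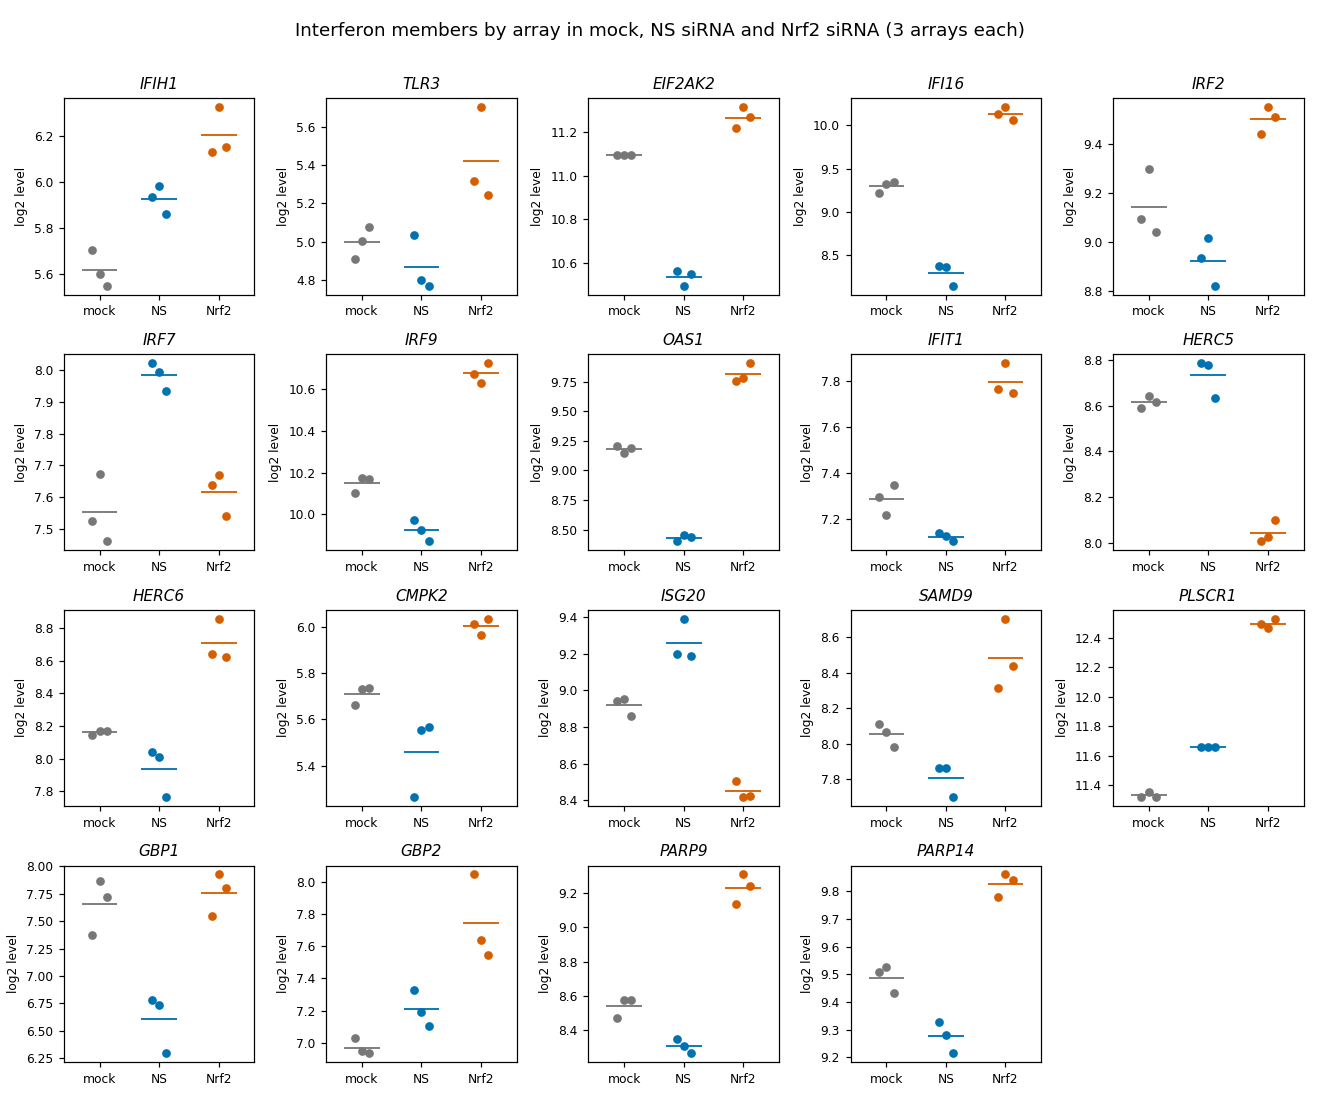
Log2 level (y axis, a scale of its own in each panel) of the 19 members with a called difference of at least 0.5 in any comparison, or among OAS1, IRF9 and IRF7, in each of the 9 arrays; points are arrays and bars group means. Mock lies between NS siRNA and Nrf2 siRNA for OAS1 and IFI16, while GBP1 in mock overlaps Nrf2 siRNA.

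The oligoadenylate synthetases make short adenylate chains that activate a latent antiviral ribonuclease. In that family of 4, OAS1 was the single member called by its brightest probe set. Of all genes 47.6% were called against NS siRNA and 33% against mock. OAS1 stood at 9.21, 9.15 and 9.19 in mock, 8.40, 8.46 and 8.44 in NS siRNA, and 9.76, 9.78 and 9.91 after Nrf2 siRNA. The groups did not overlap. The rise was 1.38 ± 0.05 (SE) against NS siRNA (limma adjusted p = 2.76e-10) and 0.64 ± 0.05 against mock (adjusted p = 6.41e-07). The other OAS1 probe set gave 1.13 and 0.70.

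OAS3 differed from NS siRNA by 0.08 ± 0.05 (SE), OAS2 by -0.06 ± 0.06 and OASL, a relative without synthetase activity, by -0.07 ± 0.05 (limma adjusted p = 0.236, 0.459 and 0.245). Against mock their differences lay between -0.06 and 0.04. The second OAS3 probe set, at a mean of 6.97, was at 0.21 against NS siRNA and 0.26 against mock. Both passed (limma adjusted p = 0.0498 and 0.0283 over the 41091 single-gene probe sets), so the result for OAS3 depends on the probe set.

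The IFIT proteins bind viral RNA and block its translation. By the brightest probe sets, 1 of the 4 (IFIT1) rose against NS siRNA and 1 (IFIT5) fell, beside 21% and 26.6% of all genes. IFIT1 stood at 7.30, 7.22 and 7.35 in mock, 7.14, 7.12 and 7.10 in NS siRNA, and 7.77, 7.88 and 7.75 after Nrf2 siRNA. Its Nrf2 siRNA arrays lay above all 6 controls, by 0.68 ± 0.05 (SE) and 0.51 ± 0.05 (limma adjusted p = 2.31e-07 and 5.62e-06). The mean level of IFIT1, 7.40, lay below the median of all probe sets. IFIT5 differed by -0.17 ± 0.06 from NS siRNA (adjusted p = 0.0266), a call lost with equal array medians (adjusted p = 0.0723) and without NS siRNA replicate 1 (0.0839), NS siRNA replicate 2 (0.0933), Nrf2 siRNA replicate 1 (0.0866) or Nrf2 siRNA replicate 3 (0.0931). IFIT2 and IFIT3 were at -0.10 ± 0.07 and -0.09 ± 0.06 and did not pass (adjusted p = 0.251 and 0.268), and their probe sets disagreed. The second one of each was called higher against NS siRNA (0.34 and 0.22, limma adjusted p = 0.000425 and 0.0407 over the 41091 single-gene probe sets). Against mock these were also called (0.55 and 0.44, adjusted p = 1.16e-05 and 0.000881). The results for IFIT2 and IFIT3 thus depend on the probe set.

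In the ISG15 group the modifier itself did not pass, while its ligase HERC5 fell. ISG15 stood at 8.99, 9.01 and 8.95 in mock, 9.04, 9.07 and 9.05 in NS siRNA, and 9.01, 9.14 and 8.97 after Nrf2 siRNA (limma adjusted p = 0.83 against NS siRNA). HERC5, the main human ligase for ISG15, stood at 8.59, 8.64 and 8.62 in mock, 8.79, 8.78 and 8.64 in NS siRNA, and 8.01, 8.03 and 8.10 after Nrf2 siRNA, below all 6 controls. It fell by 0.69 ± 0.05 (SE) against NS siRNA and by 0.57 ± 0.05 against mock (adjusted p = 2.17e-07 and 2.35e-06).

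HERC6, a relative of HERC5 that is not known as an ISG15 ligase in human cells, stood at 8.14, 8.17 and 8.17 in mock, 8.04, 8.01 and 7.76 in NS siRNA, and 8.64, 8.86 and 8.62 after Nrf2 siRNA, above all controls. The rise was 0.77 ± 0.08 (SE) and 0.55 ± 0.08 (limma adjusted p = 3.20e-06 and 0.000120). Its second, dimmer probe set differed from NS siRNA by -0.02, so the mean of both gave 0.38 and 0.29. USP18, which removes ISG15, rose by 0.22 ± 0.06 and 0.34 ± 0.06 (adjusted p = 0.0105 and 0.000736); without NS siRNA replicate 3 the first had adjusted p = 0.0505. UBE2L6, the conjugating enzyme, rose by 0.15 ± 0.05 against NS siRNA (adjusted p = 0.0173), a call that failed when replicate 3 of NS siRNA (0.07) or replicate 1 of Nrf2 siRNA (0.0565) was left out and with quantile normalization (0.08, adjusted p = 0.156).

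Among 9 antiviral effectors, 3 rose and 2 fell against each control. Of all genes 21% rose and 26.6% fell against NS siRNA, and 16.4% and 16.7% against mock. PLSCR1 stood at 11.32, 11.35 and 11.32 in mock, 11.66 in each NS siRNA array, and 12.49, 12.47 and 12.53 after Nrf2 siRNA. Mock was lowest and NS siRNA lay between, with no overlap. It rose by 0.84 ± 0.04 (SE) and 1.16 ± 0.04 (limma adjusted p = 4.30e-09 and 4.80e-10). ISG20, which degrades single-stranded RNA, stood at 8.94, 8.95 and 8.86 in mock, 9.20, 9.39 and 9.19 in NS siRNA, and 8.51, 8.42 and 8.42 after Nrf2 siRNA. The Nrf2 siRNA arrays were lowest, by -0.81 ± 0.06 and -0.47 ± 0.06 (adjusted p = 1.75e-07 and 4.52e-05), and the other ISG20 probe set gave -0.96 and -0.48.

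SAMD9, a restriction factor of poxviruses, stood at 8.11, 8.06 and 7.98 in mock, 7.86, 7.86 and 7.70 in NS siRNA, and 8.31, 8.70 and 8.44 after Nrf2 siRNA. CMPK2, a mitochondrial nucleotide kinase, stood at 5.66, 5.73 and 5.73, then 5.26, 5.55 and 5.57, then 6.01, 5.96 and 6.03, below the median of all probe sets throughout. In both genes the Nrf2 siRNA arrays were the highest. SAMD9 rose by 0.68 ± 0.09 (SE) and 0.43 ± 0.09 and CMPK2 by 0.54 ± 0.07 and 0.29 ± 0.07 against NS siRNA and mock (limma adjusted p = 2.58e-05, 0.00164, 3.41e-05 and 0.00603). BST2 (tetherin), which holds budding virus at the cell surface, fell by 0.24 ± 0.05 and 0.21 ± 0.05 at a mean level below the median (adjusted p = 0.000822 and 0.00330). MX1, MX2, RSAD2 (viperin) and XAF1 did not pass against NS siRNA or mock; the nearest was MX1 against mock (0.19 ± 0.07, adjusted p = 0.0525).

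The 2 guanylate-binding proteins, GTPases that attack the vacuoles of intracellular pathogens, rose against NS siRNA but were related to mock differently. The mean levels of GBP1 and GBP2, 7.34 and 7.31, lay below the median of all probe sets. GBP1 stood at 7.38, 7.86 and 7.72 in mock, 6.78, 6.73 and 6.30 in NS siRNA, and 7.55, 7.93 and 7.80 after Nrf2 siRNA. Only NS siRNA stood apart: the difference was 1.15 ± 0.14 (SE) from NS siRNA (limma adjusted p = 2.12e-05) and 0.10 ± 0.14 from mock (adjusted p = 0.639). Of its 4 probe sets, 3 rose against NS siRNA, and the mean of the 4 gave 0.77. Of the dimmer ones 2 were called against mock (0.25 and 0.36, limma adjusted p = 0.0189 and 0.0164 over the 41091 single-gene probe sets), so the comparison with mock depends on the probe set. GBP2 stood at 7.03, 6.95 and 6.94 in mock, 7.33, 7.19 and 7.10 in NS siRNA, and 8.05, 7.64 and 7.55 after Nrf2 siRNA, with the Nrf2 siRNA arrays highest (0.54 ± 0.10 and 0.77 ± 0.10, adjusted p = 0.000924 and 8.45e-05).

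Both PARP genes rose. PARP9, which forms a complex with the ubiquitin ligase DTX3L, stood at 8.47, 8.58 and 8.58 in mock, 8.35, 8.31 and 8.27 in NS siRNA, and 9.14, 9.31 and 9.24 after Nrf2 siRNA. PARP14, a mono-ADP-ribosyltransferase, stood at 9.51, 9.53 and 9.43, then 9.33, 9.28 and 9.22, then 9.78, 9.86 and 9.84. In both the Nrf2 siRNA arrays were highest and the NS siRNA arrays lowest. PARP9 was at 0.92 ± 0.05 (SE) and 0.69 ± 0.05 and PARP14 at 0.55 ± 0.05 and 0.34 ± 0.05 (limma adjusted p = 2.31e-08, 6.79e-07, 9.27e-07 and 0.000128). Their second probe sets were at 0.28 and -0.12 against NS siRNA, and averaging both probe sets gave 0.60 for PARP9 and 0.22 for PARP14 (0.36 and 0.22 against mock), each still past the threshold.

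Of the other 6 interferon-induced genes, IFI6, a mitochondrial antiviral protein, rose by 0.34 ± 0.06 (SE) against NS siRNA (limma adjusted p = 0.000795) and was at 0.11 ± 0.06 against mock (adjusted p = 0.218). Its mean level, 7.34, lay below the median of all probe sets. IFI35, the partner of NMI, fell by 0.30 ± 0.05 against mock and was at -0.01 ± 0.05 against NS siRNA (adjusted p = 0.000646 and 0.834). IFI27, IFI44, IFI44L and EPSTI1 lay between -0.02 and 0.08 in these 2 comparisons. The chosen IFI44 probe set was at 0.04 against NS siRNA, while the dimmer one was at 0.36.

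For 12 members no comparison passed the test: OAS2, OAS3, OASL, ISG15, MX1, MX2, RSAD2, XAF1, IFI27, IFI44, IFI44L and EPSTI1, several of them textbook markers of an interferon response. Their differences lay between -0.13 and 0.19, with adjusted p of 0.0525 or more. Under alternatives 4 of the 12 gained a call: MX1 against mock in 6 alternatives (lowest limma adjusted p = 0.0268) and in NS siRNA against mock in 2 (0.0171), OAS3 in NS siRNA against mock in 3 (0.0413), and, with other probe sets, OAS3 (0.0279) and IFI44 (0.00462), both higher, and XAF1 (-0.21, 0.0305) against NS siRNA. With the most variable probe set OAS3 and IFI44 were also called against mock (0.26 and 0.30). OAS3, OASL and ISG15 had a mean level above the median of all probe sets and the other 9 lay at or below it. No detection test was available for any member, so a dim transcript and an absent one cannot be told apart, for those 9 or for the others. The leukocyte markers CD3E and LILRA4 also lay above the median, at means of 8.43 and 7.89. Of all 42 members 24 lay above that median. Of these 24, 12 rose and 5 fell against NS siRNA (70.8% called), and of the 18 others 8 rose and 1 fell (50%). Of the 19775 genes 13150 lay above it, and 63.4% of these were called when tested alone. That share has an adjustment of its own, unlike the 70.8%. No such share was taken for the genes at or below the median, so the 50% has no background of like level. Over all genes 21% rose and 26.6% fell.

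**Figure D3:**
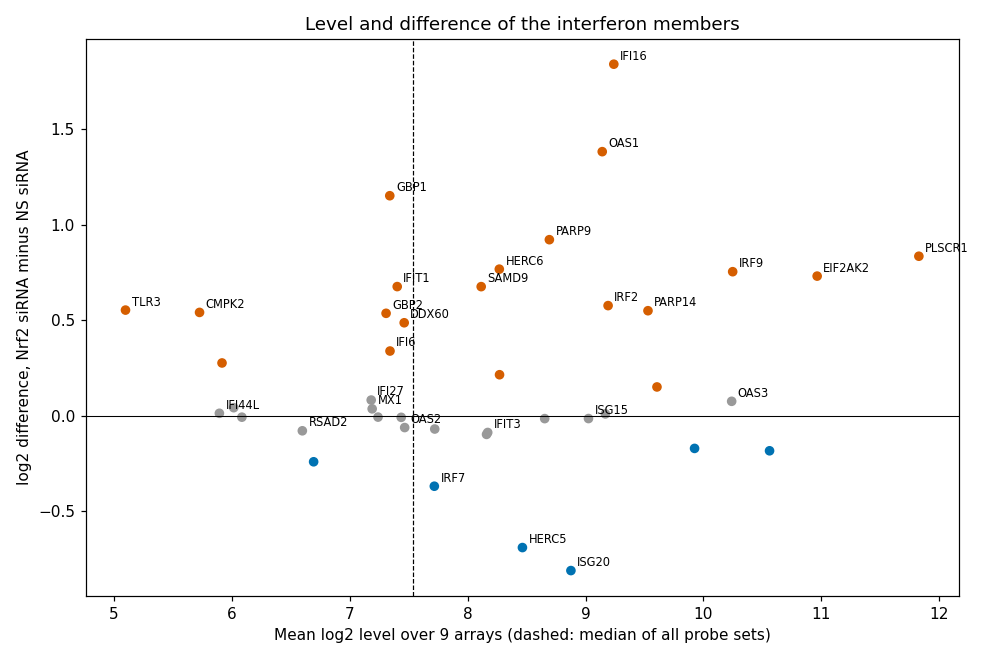
Mean log2 level over 9 arrays (x axis; the dashed line is the median of all probe sets, 7.54) and log2 difference between Nrf2 siRNA and NS siRNA (y axis) of the 42 members; orange rose, blue fell, grey did not pass. Called members lie on both sides of the dashed line, and ISG15 and OAS3 lie to its right near 0; levels of different probe sets are not comparable as amounts.

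The calls can be set beside the promoter letters. Of the 24 measured members with an ISRE core 11 rose, 4 fell and 9 did not pass against NS siRNA, with a median difference of 0.08; of all genes 21% rose and 26.6% fell. Of the 9 measured members with a promoter window and no such core, which include OAS1, IFI16 and IRF9, 6 rose and 0 fell (median 0.54). Among the 8 with the antioxidant element core (OAS1, IFIT3, HERC5, ISG20, PARP9, PARP14, IFI27, IFI35), 3 rose and 2 fell. The 12 with GAS letters held 6 that rose and 1 that fell. These are counts of letters in a short window, with no test, and say nothing on whether a factor binds.

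The comparison of NS siRNA with mock asks how the 2 controls differ in these genes. Of 42 members 7 rose and 15 fell, with 30.8% of all genes called, 15.6% higher and 15.2% lower. By at least 0.5, 4 members fell and 0 rose, against 3.73% and 1.69% of all genes: GBP1 (-1.05 ± 0.14 SE), IFI16 (-1.0 ± 0.07), OAS1 (-0.75 ± 0.05) and EIF2AK2 (-0.56 ± 0.04), with limma adjusted p of 0.000107, 2.13e-07, 2.07e-07 and 9.00e-07. The median over the members was -0.02 and over all genes 0.03, and arrays of the groups did not overlap for 26 of 42 members, against 43.4% of all genes.

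The 7 that rose were IRF7 (0.43 ± 0.06 SE), IRF1, ISG20 (0.34 ± 0.06), PLSCR1 (0.33 ± 0.04), IFIH1 (0.31 ± 0.06), IFIT2 (0.25 ± 0.07) and IFIT3 (0.24 ± 0.06). The largest adjusted p among them was 0.0124 (limma, IFIT2). The other falls lay between -0.28 (IFI35) and -0.17 (IFIT1) and included IRF9 (-0.23 ± 0.05, adjusted p = 0.00267), PARP9 (-0.23 ± 0.05, adjusted p = 0.00480) and UBE2L6 (-0.22 ± 0.05, adjusted p = 0.00328).

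Of these 22 calls 13 held in every alternative and 9 were lost in at least 1. HERC6 was lost on leaving out any mock replicate, NS siRNA replicate 2 or 3, or replicate 1 of Nrf2 siRNA (limma adjusted p = 0.0506 to 0.185). SAMD9 was lost on leaving out any mock or NS siRNA replicate, or replicate 3 of Nrf2 siRNA (0.0547 to 0.168). IFIT1 was lost without mock replicate 1 or 3 or NS siRNA replicate 2 or 3 (0.0626 to 0.101), IFI6 without mock replicate 1 or 2 or NS siRNA replicate 2 (0.0554 to 0.0751), and IRF2 without mock replicate 2 (0.128) or NS siRNA replicate 1 (0.061) or 3 (0.124) and in a fit of the 2 groups alone (0.0521). CMPK2 was lost without mock replicate 2 (0.0569) or 3 (0.0557), IFIT2 without mock replicate 1 (0.0603), and IFIT3 without mock replicate 2 (0.0546) or NS siRNA replicate 2 (0.0544). Without NS siRNA replicate 1 the difference of CMPK2 was -0.15, and without NS siRNA replicate 3 that of HERC6 was -0.14, against -0.25 and -0.22 with all arrays. IRF2 without mock replicate 2 was at -0.14, against -0.22, and IFI6 without NS siRNA replicate 2 at -0.15, against -0.23. Averaging both probe sets moved PARP14 from -0.21 to 0.00065 (adjusted p = 0.992) and HERC6 to -0.08 (0.269). GBP1, IFI16, OAS1 and EIF2AK2 kept their calls; with averaged probe sets GBP1 was at -0.60 and IFIH1 at 0.14, against 0.31.

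Set side by side, the members divide by where mock stood. For GBP1 and EIF2AK2 most of the distance between the siRNA groups lay between NS siRNA and mock. For OAS1 the siRNA groups differed by 1.38, of which 0.75 was the distance of NS siRNA below mock and 0.64 that of Nrf2 siRNA above it. IRF9, PARP9 and HERC6 lay 0.23, 0.23 and 0.22 below mock in NS siRNA and 0.53, 0.69 and 0.55 above it after Nrf2 siRNA. In NS siRNA against mock the calls of IRF9 and PARP9 held in every alternative. That of HERC6 was lost in several, and its difference was -0.08 with both probe sets averaged. HERC5, DDX60 and TLR3 showed no called difference between the controls.

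The rest of the pathway was read from a list of 84 other genes, of which 78 were measured. This list too was chosen with earlier results of these data known. Against NS siRNA 30 rose and 18 fell (61.5% called, against 47.6% of all genes), against mock 36 rose and 5 fell (52.6% against 33%), and in NS siRNA against mock 22 rose and 17 fell (50% against 30.8%). Of 8 measured interferon genes, 1 rose and 1 fell against NS siRNA, beside 21% and 26.6% of all genes. Against mock 0 of the 8 passed limma's adjusted test, 0 had an unadjusted p below 0.05, and the differences lay between -0.15 and 0.05. Of all genes 33% were called against mock. All 8 had a mean level below the median of all probe sets, where a dim transcript and an absent one cannot be told apart. The interferon-beta gene IFNB1 was at -0.13 and -0.15 (adjusted p = 0.253 and 0.242), at a level of 5.96 in mock, below the median of all probe sets. The one that rose, named after its value was seen, was the epithelial interferon IFNE at 7.39, 7.47 and 7.34 in mock, 6.80, 6.63 and 6.88 in NS siRNA, and 7.28, 7.51 and 7.41 after Nrf2 siRNA; NS siRNA alone stood apart. The one that fell was IFNL2 (-0.21 ± 0.05 SE, adjusted p = 0.00377), whose probe set may also read its near-identical relatives.

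Of the 9 receptor and kinase genes, 2 rose and 3 fell against NS siRNA, beside 21% and 26.6% of all genes. IFNAR1, a chain of the receptor for interferon-alpha and -beta, stood at 8.96, 8.99 and 8.92 in mock, 8.87, 8.86 and 8.86 in NS siRNA, and 9.46, 9.64 and 9.40 after Nrf2 siRNA, the highest group (0.64 ± 0.06 SE and 0.55 ± 0.06, limma adjusted p = 1.48e-06 and 1.13e-05). IFNAR2, the other chain, stood at 9.42, 9.46 and 9.37 in mock, 9.99, 9.82 and 9.86 in NS siRNA, and 9.59, 9.56 and 9.53 after Nrf2 siRNA. NS siRNA was its high group, and it fell by 0.33 ± 0.05 from there (adjusted p = 0.000173). JAK2 was at 0.26 ± 0.06 against NS siRNA (adjusted p = 0.00531), JAK1 at -0.17 ± 0.05 (0.0116) and the interferon-gamma receptor chain IFNGR1 at -0.21 ± 0.04 (0.00103). TYK2, IFNGR2, IFNLR1 and IL10RB did not pass against NS siRNA (adjusted p = 0.372, 0.801, 0.0841 and 0.868). IFNGR1, IFNGR2, IFNAR2 and IL10RB rose in NS siRNA against mock, by 0.55, 0.27, 0.47 and 0.45.

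The 3 largest changes of the list against NS siRNA were those of the membrane restriction factors IFITM2 (1.41 ± 0.06 SE) and IFITM3 (1.32 ± 0.05) and of DTX3L (1.26 ± 0.05), with limma adjusted p of 8.95e-10, 2.22e-10 and 5.07e-10. IFITM2 and IFITM3 are near-identical in sequence, which leaves the split between the 2 genes uncertain. DTX3L, the partner of PARP9, stood at 9.82, 9.94 and 9.90 in mock, 9.38, 9.40 and 9.32 in NS siRNA, and 10.58, 10.66 and 10.65 after Nrf2 siRNA. Its groups did not overlap and stood in the same order as those of PARP9. Against mock the largest were IFITM2 (1.24 ± 0.06), IFITM3 (1.08 ± 0.05) and STAT3 (0.74 ± 0.06, adjusted p = 5.34e-07).

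Against NS siRNA 21% of all genes rose and 26.6% fell. Of 24 other effectors 14 rose and 2 fell, while of 16 other sensors and adaptors 3 rose (18.8%, near the share of all genes) and 7 fell. Among the latter, named after their values were seen, the cytosolic DNA sensor CGAS fell by 0.48 ± 0.05 (SE) and MAVS, the mitochondrial adaptor of the RNA sensors, rose by 0.54 ± 0.04 (limma adjusted p = 4.12e-06 and 6.43e-07). Of 5 inhibitors 1 rose and 2 fell, and of 4 other STAT and IRF factors 1 rose.

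In NS siRNA against mock the largest changes were PSMB9, an immunoproteasome subunit (0.98 ± 0.08 SE), HLA-C (-0.72 ± 0.04) and NMI (0.68 ± 0.06), with limma adjusted p of 2.33e-06, 8.56e-08 and 1.67e-06. PSMB9 stood at 8.25, 8.57 and 8.39 in mock, 9.40, 9.50 and 9.25 in NS siRNA, and 8.49, 8.68 and 8.64 after Nrf2 siRNA, while HLA-C stood at 11.77, 11.86 and 11.78, then 11.08, 11.06 and 11.10, then 12.18, 12.13 and 12.16. NS siRNA was thus the high group for PSMB9 and the low group for HLA-C. HLA class I genes are close in sequence, which makes the HLA-C value uncertain. Of 12 measured genes of antigen presentation 8 rose and 3 fell against NS siRNA, beside 21% and 26.6% of all genes. In NS siRNA against mock 4 rose and 5 fell, beside 15.6% and 15.2% of all genes. HLA-B, HLA-C, HLA-E and HLA-F are among the 12, which may therefore not be 12 separate readings.

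**Figure D4:**
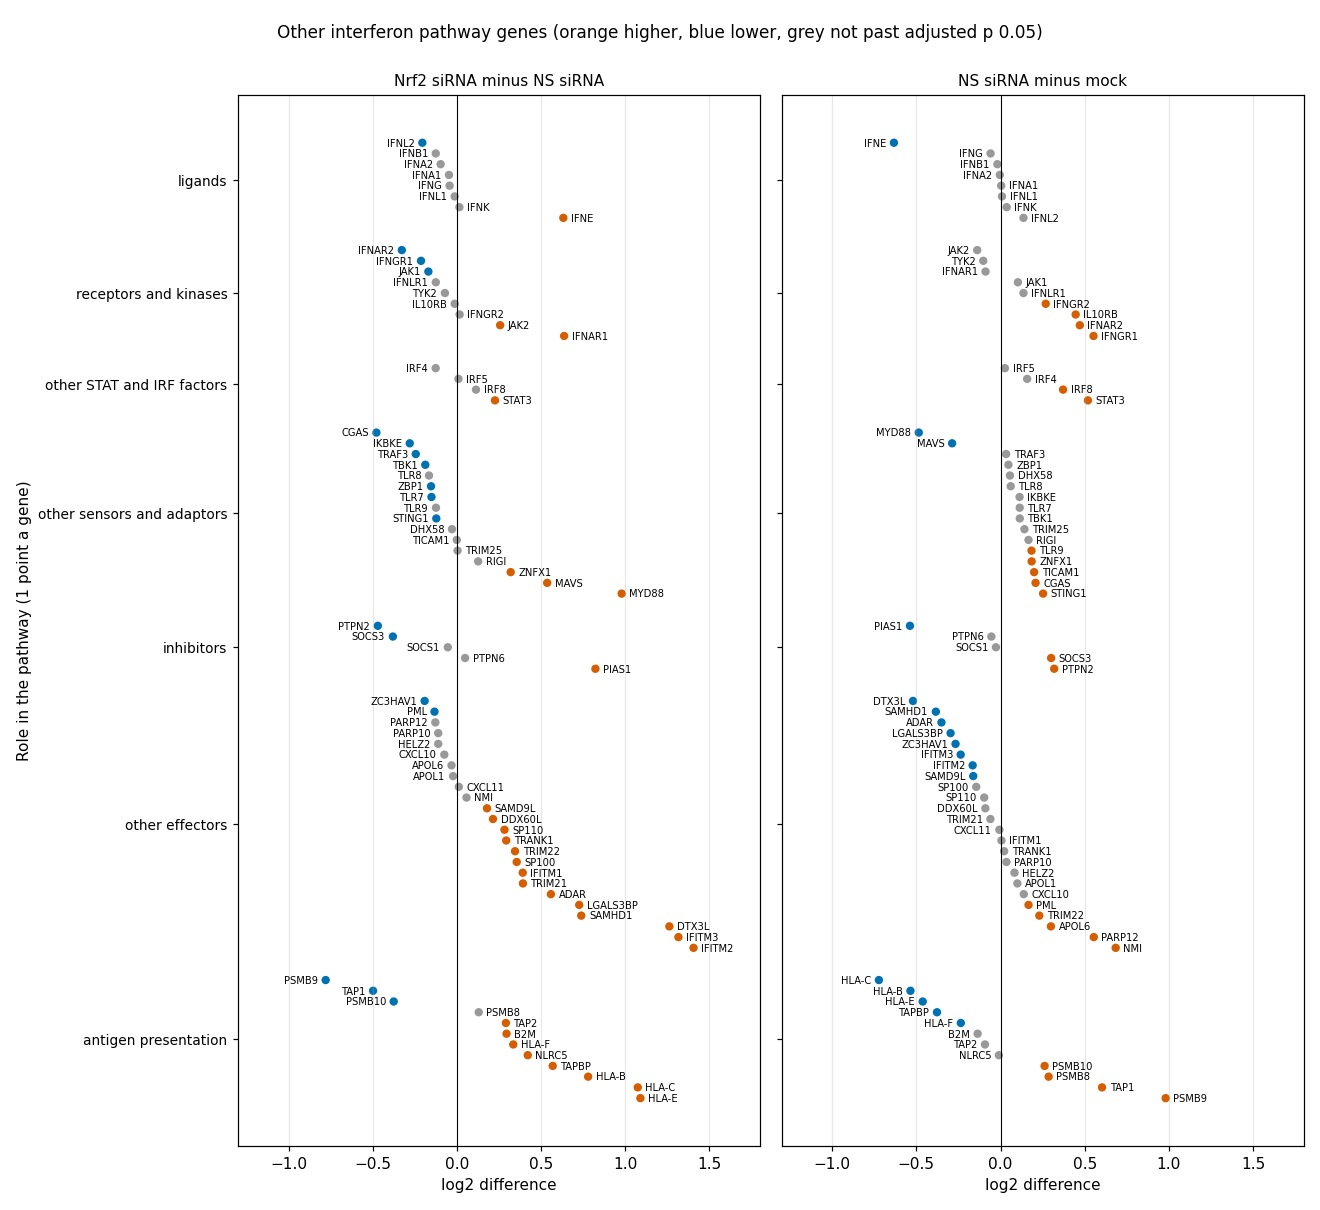
Log2 difference (x axis) of 78 other interferon pathway genes, 1 point a gene, grouped by role on the y axis, for Nrf2 siRNA minus NS siRNA (left) and NS siRNA minus mock (right). IFITM2, IFITM3 and DTX3L lie farthest to the right on the left panel and PSMB9 on the right panel, while most ligands lie near 0.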

How the data were processed

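RNA of 9 A549 cultures was read on Affymetrix arrays with 54675 probe sets. The values the authors deposited are on a log2 scale and come from RMA (per the submitters' processing notes), which normalizes between arrays; no version of it is given in the sources used here. Detection calls and scan dates were not used here. The 62 control probe sets were left out; 41091 probe sets named exactly 1 gene, 1801 several, and 11721 were unnamed. Symbols were updated through Entrez identifiers (41037 matched, 54 kept). The brightest probe set stood for a gene, which left 19775 genes.

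One limma 3.58.1 model (R 4.3.3; lmFit, eBayes) with 3 group means over 9 arrays gave every test, two-sided, Benjamini-Hochberg adjusted over all genes, threshold 0.05. It was tested on simulated data. SD is over 3 arrays, SE is the model's, and precision is limited by the 3 arrays a group. Arrays were printed singly for members called with a difference of at least 0.5 and for OAS1, IRF9 and IRF7; from the pathway list the 3 largest called changes a comparison and all receptors and kinases were named. Members and lists were chosen with earlier results of these data known. The alternatives were equal array medians, quantile normalization, a filter at the median of all probe sets, the mean of the probe sets or the most variable one, eBayes with trend and robust variances, a fit of 2 groups, a threshold of 0.01, leaving out 1 array at a time, and blocking on the replicate number. Figures used matplotlib 3.10.9.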

Additional observations from a re-analysis of the deposited data

How the results depend on the processing

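Of the members called, 23 of 26 against NS siRNA, 22 of 23 against mock and 13 of 22 in NS siRNA against mock kept their call in every alternative. Of the members not called, 5 of 16, 6 of 19 and 4 of 20 gained a call, in either direction, in at least 1 alternative. With genes above the median of all probe sets, 12 members rose against NS siRNA in place of 20, since fewer members were tested; at a threshold of 0.01, 9 members fell in NS siRNA against mock in place of 15. Leaving out 1 array gave 18 to 20 rises and 5 to 6 falls against NS siRNA, 18 to 19 and 5 to 6 against mock, and 6 to 9 and 10 to 15 in NS siRNA against mock. The choice of probe set turned 6 values: IFIT2 against NS siRNA was at 0.12 with the mean and 0.34 with the most variable probe set, IFIT3 at 0.22 with the latter, OAS3 and IFI44 against mock at 0.26 and 0.30 with the latter, and PARP14 in NS siRNA against mock at 0.00065 with the mean. Same-numbered replicates correlated at -0.208 to 0.231 in their deviations from the group means. These values were not set beside those of differently numbered replicates, so they cannot show whether the numbers pair the samples. With the replicate number as a block 20 members rose and 6 fell against NS siRNA, 19 and 5 against mock, and 8 and 15 in NS siRNA against mock. No member has a test of signal over background, whether it lies above or below the median of all probe sets.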
